A study of Mus musculus with 12 samples.

Results

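The type I interferon response was followed through 8 listed genes, Stat2, Irf7, Ifi35, Ifi204, Ifit2, Ifih1, Bst2 and Mx1, in skin from a mouse model of cutaneous lupus erythematosus (CLE). Their probes were found by matching each probe's RefSeq identifier to a gene symbol. A probe was matched for 7 of the 8, out of 561 gene probes on the panel, and all 7 lay above background often enough to be tested. Mx1, an interferon-induced antiviral GTPase, was the eighth gene, and no probe was matched to it here.

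Skin RNA of 12 female B6 mice, 4 in each of 3 groups, was hybridised to a NanoString immunology panel for mouse genes, which counts colour-barcoded probes without amplification. All 12 mice received 10000000 OT2 CD4 T cells, which carry a T cell receptor for ovalbumin and had been cultured for 10 days under Th2 conditions. Skin was frozen when disease first appeared, at about 3 to 4 weeks, and the age of the mice was not stated. The CLE mice were the parental strain, rtTA+ K5TGO+ and TLR9 ko/ko in all 4 animals. The Merkel het CLE mice were also rtTA+ K5TGO+ and carried Atoh1flox/wt with K14Cre+, so that 1 floxed allele of Atoh1, a factor needed to form Merkel cells, could be removed in K14-expressing epithelium. Merkel het CLE mice 1 and 2 were TLR9 wt/wt and mice 3 and 4 were TLR9 ko/ko. The littermates lacked rtTA, K5TGO or both and had a disease score of 0. Littermate 1 was rtTA- K5TGO-, TLR9 ko/wt, Atoh1flox/flox and K14Cre-, and littermate 2 was rtTA- K5TGO+, TLR9 ko/ko, Atoh1wt/wt and K14Cre-. Littermate 3 was rtTA- K5TGO+, TLR9 ko/ko, Atoh1flox/wt and K14Cre+, and littermate 4 was rtTA+ K5TGO-, TLR9 ko/ko, Atoh1flox/flox and K14Cre+. The littermates were therefore mixed in Atoh1, K14Cre and TLR9 genotype, 3 of the 4 being TLR9 ko/ko and 2 carrying K14Cre. The series' design text gives TLR9KO for every group and describes the Merkel het CLE mice as without Merkel cells, which differs from the labels of single mice given above; the labels were followed.

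Type I interferons bind a receptor made of Ifnar1 and Ifnar2, and the attached kinases Jak1 and Tyk2 then phosphorylate Stat2. It takes part with Irf9 in the complex ISGF3, which binds the interferon-stimulated response element (ISRE) in the promoters of interferon-induced genes. An interferon signature of this kind is well known in the skin lesions of people with cutaneous lupus.

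Promoter windows of 300 bases, from 250 before to 50 after the annotated start, were present in the RefSeq table (GRCm38.p6) for 6 of the members. They are shown for the 3 members whose window held the ISRE core GAAANNGAAA, searched on both strands, because this is the element through which Stat2 itself acts. The matched letters are in capitals. The windows lie at chr10:128270248-128270547 on the + strand for Stat2, chr8:71537423-71537722 on the - strand for Bst2 and chr2:62646206-62646505 on the - strand for Ifih1.
Stat2: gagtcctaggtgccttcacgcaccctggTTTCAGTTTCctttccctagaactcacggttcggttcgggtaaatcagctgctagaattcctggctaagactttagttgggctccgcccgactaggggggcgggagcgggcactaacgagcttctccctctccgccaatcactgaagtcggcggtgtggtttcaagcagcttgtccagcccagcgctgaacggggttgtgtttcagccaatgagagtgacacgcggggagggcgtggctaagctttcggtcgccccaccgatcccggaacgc
Bst2: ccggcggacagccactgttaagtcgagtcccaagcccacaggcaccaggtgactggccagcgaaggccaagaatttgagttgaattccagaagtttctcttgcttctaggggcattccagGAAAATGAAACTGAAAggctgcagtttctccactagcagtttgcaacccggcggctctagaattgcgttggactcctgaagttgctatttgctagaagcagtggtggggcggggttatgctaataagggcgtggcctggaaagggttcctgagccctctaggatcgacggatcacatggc
Ifih1: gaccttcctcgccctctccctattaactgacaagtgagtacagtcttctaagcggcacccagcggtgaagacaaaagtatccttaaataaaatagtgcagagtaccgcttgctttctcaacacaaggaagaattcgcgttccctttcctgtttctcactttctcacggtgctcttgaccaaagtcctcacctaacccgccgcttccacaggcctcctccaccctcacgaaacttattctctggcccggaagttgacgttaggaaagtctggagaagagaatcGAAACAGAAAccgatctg
In Stat2 the match was on the opposite strand, TTTCAGTTTC, with its bases at -222 to -213 from the start. Bst2 held overlapping matches, GAAAATGAAA at -130 to -121 and GAAACTGAAA at -124 to -115. The Ifih1 match, GAAACAGAAA, lay after the start, at 33 to 42. The core was present in 1131 of 32851 promoter windows in the table, or 3.44%. The gamma-activated element TTCNNNGAA was found in 8.3% of all windows and in 3 members. These were Bst2, where TTCCAGGAA at -136 to -128 overlapped the ISRE match, Ifi35 with TTCACAGAA at 8 to 16, and Ifit2 with TTCCTGGAA at -241 to -233. A match describes letters in these windows and was not tested as a binding site.

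Values are given in the deposited normalized units, in which each library's barcode counts are multiplied by 1 factor. Gene totals ran from 99297 counts in littermate 2 to 682046 in Merkel het CLE 1, so 1 count was worth 0.715 to 5.56 units, the last in CLE 1. Background was set at the mean plus 2 SD of a library's 8 negative controls, which came to 116 units in littermate 2, 106 in CLE 1 and 53.2 in CLE 2, and to 17.6 to 33.8 in the others. Of 561 gene probes, 12 for reference genes were left out, 98 were not above background often enough, and 451 were tested. Tlr9, the targeted gene, was listed as above background in 7 of the 9 TLR9 ko/ko libraries and in both wt/wt libraries, so its values do not separate the labelled genotypes. Where this probe lies relative to the deleted stretch was not given. The panel held 0 of the listed epithelial and Merkel cell markers, so the labelled tissue could not be checked against them. Because probes differ in efficiency, levels are compared between mice for 1 gene and never between genes.

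Stat2, a subunit of ISGF3, was higher in 3 of the 4 CLE mice than in any littermate. It read 128, 84.9, 95.2 and 89.6 units in littermates 1 to 4, with 84.9 being below background. The CLE animals, in order of number, gave 272, 906, 76.8 and 499 units, while the Merkel het CLE animals gave 137, 269, 133 and 56.7. CLE 3 lay below every littermate, so the groups overlapped. Merkel het CLE mice 1 to 3 were above all littermates, mice 1 and 3 by little, and mouse 4 was below them all. The group means were 99.5 ± 19.7 units (SD, n = 4) in littermates, 439 ± 356 in CLE and 149 ± 88.2 in Merkel het CLE.

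Irf7, the transcription factor that amplifies interferon production and is itself interferon-induced was also above every littermate in 3 of the 4 CLE mice. Its values were 97.8, 76.8, 70.9 and 66.6 units in littermates, the second being below background. They were 234, 385, 51.7 and 549 units in CLE mice and 125, 202, 365 and 91.5 in Merkel het CLE mice. CLE 3 was the lowest of the 12 libraries. Merkel het CLE mice 1 to 3 exceeded every littermate and the fourth fell inside the littermate range. The means were 78.0 ± 13.8 units (SD, n = 4) in littermates, 305 ± 212 in CLE and 196 ± 122 in Merkel het CLE.

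Ifih1 encodes MDA5, the cytoplasmic sensor of long double-stranded RNA, and Ifi204 encodes a member of the HIN-200 family of interferon-induced proteins linked to DNA sensing. Ifih1 read 773, 728, 809 and 611 units in littermates, 867, 1595, 665 and 1302 in CLE mice, and 475, 774, 908 and 314 in Merkel het CLE mice. It was the only member whose Merkel het CLE mean, 618 ± 272 units (SD, n = 4), was below that of littermates, 730 ± 86.1. Its CLE mean was 1107 ± 420 units. Ifi204 read 178, 142, 205 and 144.0 units in littermates, 395, 328, 143.9 and 729 in CLE mice, and 331, 283, 790 and 83.2 in Merkel het CLE mice. In both disease groups 3 of 4 mice lay above all littermates for Ifi204 and 1 did not, namely CLE 3, which lay inside the littermate range, and Merkel het CLE 4, which lay below it.

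The remaining members act further downstream. Bst2 encodes tetherin, which holds budding virus particles at the cell surface and in mice also marks plasmacytoid dendritic cells. It read 465, 319, 444 and 385 units in littermates, 689, 1020, 293 and 2091 in CLE mice, and 696, 949, 1126 and 226 in Merkel het CLE mice. CLE 3 and Merkel het CLE 4 were below every littermate and all other diseased mice were above them. Ifi35 encodes an interferon-induced leucine zipper protein. It read 406, 368, 332 and 242 units in littermates, 801, 891, 296 and 885 in CLE mice, and 321, 660, 578 and 215 in Merkel het CLE mice. Ifi35 was above the littermate range in 3 CLE mice and in 2 Merkel het CLE mice. Ifit2, whose product binds RNA and restrains translation, read 71.1, 68.7, 86.1 and 88.4 units in littermates. It read 66.7, 74.1, 92.2 and 268 units in CLE mice and 91.6, 99.9, 216 and 55.8 in Merkel het CLE mice. Ifit2 was above background in 10 of 12 libraries, the exceptions being littermate 2, at 17 barcode counts, and CLE 1, at 12. CLE 4 and Merkel het CLE 3 stood well above the others.

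**Figure D1:**
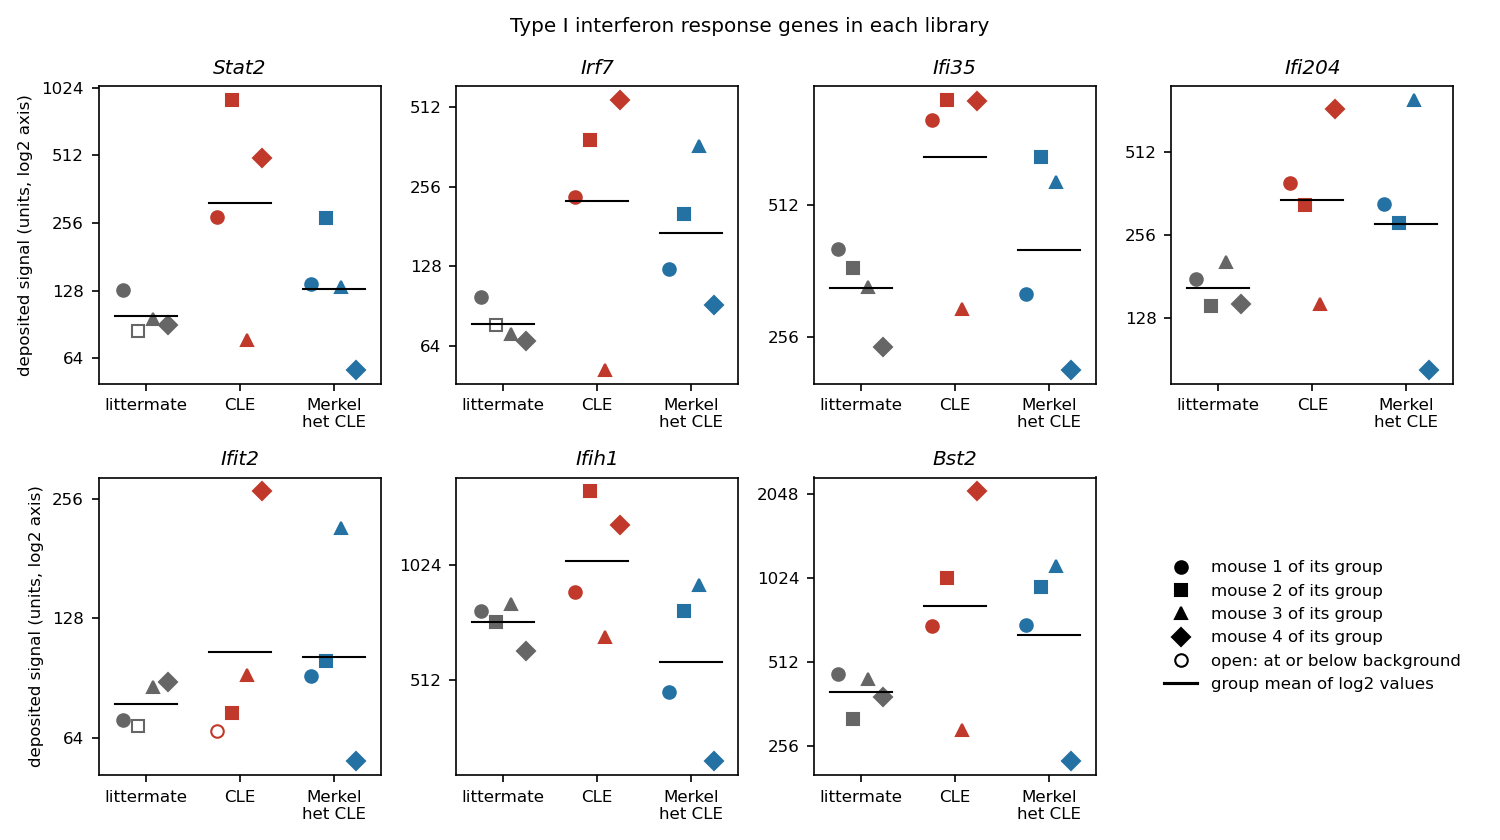
Deposited normalized units (log axis) of the 7 measured members in each of the 12 mice, by group, with a line at the group mean of log2 values and open symbols for values at or below background. CLE 3 and Merkel het CLE 4 sit within or below the littermate range for 6 and 7 members, while CLE 2 and CLE 4 include the highest value in 6 of 7.

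Between CLE and littermate skin, all 7 members had a higher estimate in CLE, and 0 passed the adjusted threshold. The log2 difference, on the log2(value + 1) scale from limma with 4 mice a group, was 1.66 ± 0.66 (SE) for Stat2, with an adjusted p of 0.148. For Irf7 it was 1.53 ± 0.64 with an adjusted p of 0.158, and for Ifi35 0.99 ± 0.42 with an adjusted p of 0.162. These correspond to 3.16-fold, 2.90-fold and 1.98-fold. Bst2 differed by 1.02 ± 0.58, Ifi204 by 1.05 ± 0.61, Ifih1 by 0.53 ± 0.35 and Ifit2 by 0.43 ± 0.48, and the limma adjusted p was 0.268 to 0.558. The Ifit2 estimate changed sign when libraries were centred on their median, quantile normalized or background subtracted. In the whole panel limma called 0 of 451 genes in this comparison (0%), with 120 at an unadjusted p under 0.05. Stat2, Irf7 and Ifi35 were higher at an unadjusted p under 0.05, as were 20.2% of all tested genes. The estimate was above 0 for 7 of 7 members, against 72.5% of tested genes. Non-overlapping higher groups were seen for 0 members, against 7.10% of the panel. The members' median difference was 1.02, and that of all tested genes 0.35. Members with an ISRE match spanned 0.53 to 1.66 and those whose window had none 0.43 to 1.53, so the ranges overlapped.

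CLE 3, the lowest CLE mouse for every member but Ifit2, decided this comparison for several members. Without it, limma called 4 of 7: Stat2 at 2.33 (adjusted p = 0.00986), Irf7 at 2.23 (0.00793), Ifi35 at 1.37 (0.0201) and Bst2 at 1.51 (0.046). Over the panel, 138 genes were called without CLE 3, or 30.6%. Leaving out any other single mouse called 0 members and 0 genes of the panel. Weighting libraries by their estimated quality called 3 members and 23.9% of the panel. Among TLR9 ko/ko mice alone, limma called 0 members, with Stat2 at 1.79 and Irf7 at 1.65. CLE 3 had a disease score of 1, as did CLE 2, which had the highest Stat2, Ifi35 and Ifih1 of all 12 mice.

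Merkel het CLE skin was compared with the same 4 littermates, so both comparisons share their controls. Of the members, 0 of 7 were called by limma and 0 were higher at an unadjusted p under 0.05, where the panel had 11.8% called and 15.5% higher at that level. The largest estimate was Irf7 at 1.13 ± 0.64 (SE, adjusted p = 0.249), a 2.19-fold difference. Ifi204 followed at 0.76 ± 0.61, Bst2 at 0.68 ± 0.58, Stat2 at 0.40 ± 0.66, Ifit2 at 0.39 ± 0.48 and Ifi35 at 0.28 ± 0.42. Ifih1 was at -0.35 ± 0.35. The Ifi35 estimate changed sign when libraries were centred on their median, and that of Stat2 did so with TLR9 ko/ko mice alone. Estimates were above 0 for 6 of 7 members and 51.0% of tested genes, and 0 members against 13.7% of the panel had non-overlapping higher groups. The median was 0.40 for the members and 0.01 for all tested genes. Weighting libraries by their estimated quality called 3 members, Irf7, Ifi204 and Bst2, and 41.0% of the panel, so the members' share was close to that of all genes. The panel's 53 calls fell to 2 to 5 on leaving out any 1 littermate and to 0 among TLR9 ko/ko mice alone. By TLR9 genotype, both wt/wt Merkel het CLE mice lay between the ko/ko mice for Irf7, Ifi204, Ifit2, Ifih1 and Bst2, with ko/ko mouse 3 at the top. For Stat2 and Ifi35 wt/wt mouse 2 was highest, and ko/ko mouse 4 was lowest for every member.

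**Figure D2:**
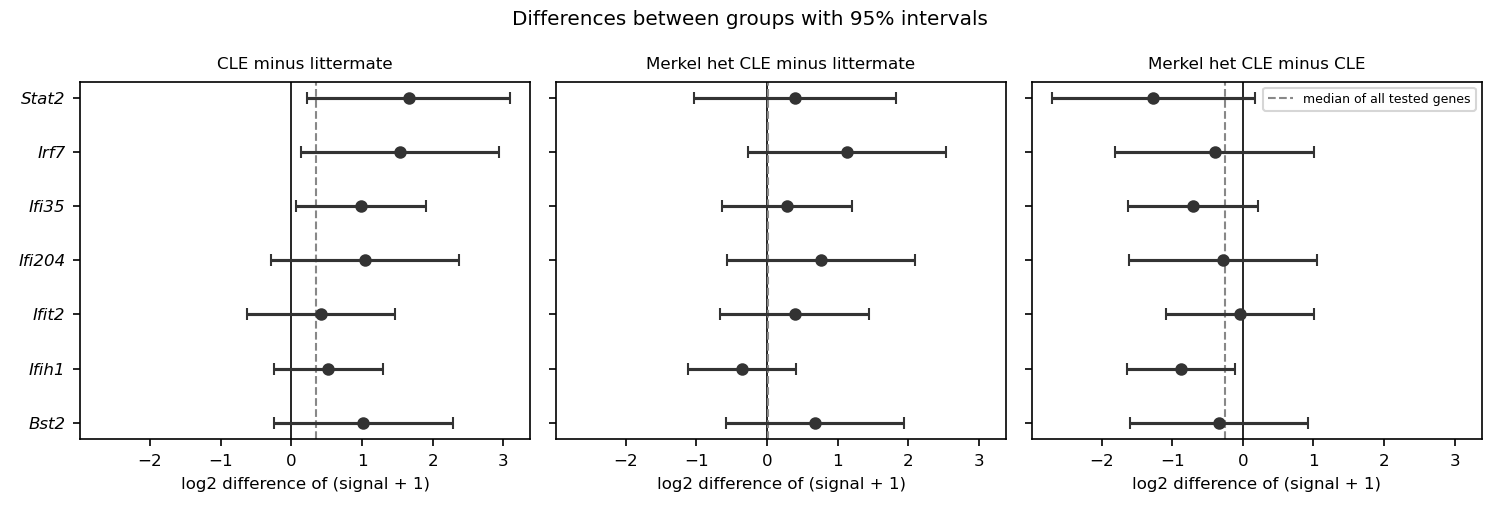
Log2 difference of each member with its 95% interval in CLE minus littermate, Merkel het CLE minus littermate and Merkel het CLE minus CLE skin. Dashed lines mark the median of all tested genes. The intervals, which are not adjusted for the 451 tests, exclude 0 for Stat2, Irf7 and Ifi35 in the first comparison and for Ifih1 in the last. Scaling turned the sign of Ifit2 in the first and last comparison and of Ifi35 in the second.

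Merkel het CLE was set directly against CLE, where 7 of 7 member estimates were below 0, as were 69.0% of the panel. Stat2 differed by -1.26 ± 0.66 (SE, limma adjusted p = 0.327) and Ifih1 by -0.88 ± 0.35 (adjusted p = 0.209). The Ifih1 95% interval ran from -1.64 to -0.11, and Ifih1 was the 1 member lower at an unadjusted p under 0.05, against 16.6% of genes. Ifi35 was at -0.71 ± 0.42, Irf7 at -0.40 ± 0.64, Bst2 at -0.34 ± 0.58, Ifi204 at -0.28 ± 0.61 and Ifit2 at -0.04 ± 0.48. The Ifit2 sign turned on centring, quantile normalization and background subtraction. Limma called 0.222% of the panel, 1 gene, and no member. Without CLE 3, Stat2 was called at -1.93 (adjusted p = 0.0478), as were 28 genes of the panel in all, or 6.21%. Without CLE 4, Irf7, Ifi204, Ifit2 and Bst2 turned above 0. The members' median was then 0.03, and that of all tested genes -0.27. Without Merkel het CLE 4, Ifi204, Ifit2 and Bst2 turned above 0. With all mice, the members' median was -0.40 and that of all tested genes -0.26.

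Both disease groups together were compared with littermates as the widest contrast. Irf7 had the largest estimate, 1.33 ± 0.56 (SE, limma adjusted p = 0.120), and was the 1 member higher at an unadjusted p under 0.05, against 20.6% of tested genes. Limma called 10.2% of the panel and 0 of 7 members. Stat2 stood at 1.03 ± 0.57, Ifi204 at 0.90 ± 0.53, Bst2 at 0.85 ± 0.50, Ifi35 at 0.64 ± 0.37, Ifit2 at 0.41 ± 0.42 and Ifih1 at 0.09 ± 0.30, the last changing sign on centring, quantile normalization and rescaling to reference genes. Without CLE 3, Stat2 and Irf7 were called, beside 29.0% of the panel. Library weights called 5 members and 43.5% of the panel. The panel's 46 calls fell to 0 on leaving out any 1 littermate.

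The order of the group means on the log2 scale was CLE, then Merkel het CLE, then littermates for 6 members, while for Ifih1 littermates came before Merkel het CLE. No neighbouring groups in these orders differed past the adjusted threshold for any member.

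The members, like most tested genes, varied more among diseased mice than among littermates. The SD of log2 values was larger in CLE than in littermates for 7 of 7 members, as it was for 89.1% of tested genes, and larger in Merkel het CLE for 7 of 7, against 78.5%. Irf7 had an SD of 0.24 in littermates, 1.49 in CLE and 0.87 in Merkel het CLE, and Stat2 had 0.26, 1.51 and 0.91. The ratio of the CLE to the littermate SD was 2.39 for Ifi35 to 6.21 for Irf7, with a panel median of 2.44. For Merkel het CLE it was 2.33 for Ifi35 to 5.25 for Ifi204, with a panel median of 1.81. The limma fit pools the spread of the 3 groups, so the same error is given to groups whose SDs differ this much. With only the 2 groups compared in the fit, limma called no member. The smallest member adjusted p was then 0.0682, in Merkel het CLE against littermates, where 121 genes of the panel, or 26.8%, were called. Such fits called 0 genes in CLE against littermates and 0 in Merkel het CLE against CLE.

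**Figure D3:**
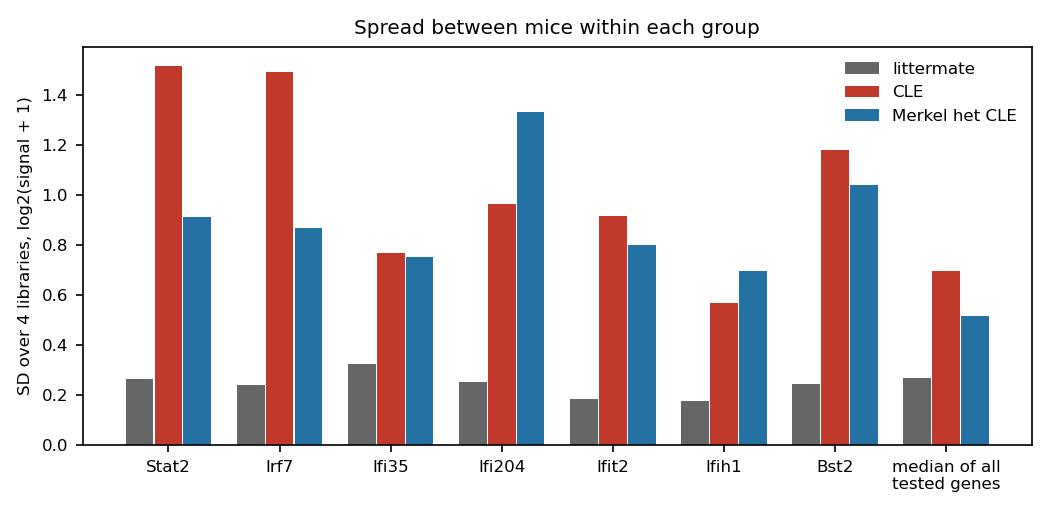
SD of log2(value + 1) among the 4 mice of each group for every member and for the panel median. Every member has a larger SD in both disease groups than in littermates, as have 89.1% of tested genes in CLE and 78.5% in Merkel het CLE. The CLE value of Irf7, 1.49, compares with 0.24 in littermates.

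The members varied together across mice. After each member was centred on its mean over the 12 libraries, the members' mean log2 value was -0.31, -0.61, -0.41 and -0.66 in littermates 1 to 4. The CLE animals stood at 0.41, 0.97, -0.73 and 1.46, and the Merkel het CLE animals at -0.14, 0.40, 0.78 and -1.16. The highest library was CLE 4 and the lowest Merkel het CLE 4, which was the lowest of 12 for 6 members. The median of all tested genes, centred in the same way, was -0.19, 0.055, -0.074 and -0.25 in littermates 1 to 4. It was 0.48, 0.31, -0.13 and 0.059 in the CLE animals and 0.13, -0.15, 0.078 and -0.46 in the Merkel het CLE animals. It was thus low with the members in Merkel het CLE 4 but near 0 in CLE 4, where the members were highest. Among the 21 pairs of members, Pearson r over the 12 libraries ran from 0.32 for Stat2 with Ifit2 to 0.93 for Ifi204 with Bst2, with a median of 0.79. Against the mean of the other members r was 0.96 for Bst2, 0.92 for Irf7 and 0.91 for Ifi35, and lowest, 0.61, for Ifit2. These are descriptions: the points share a library factor, depth and group differences. A number in the sample titles, whose meaning was not stated, was shared by CLE 3 and CLE 4, which were the lowest and the highest CLE libraries for the members. Another was shared by Merkel het CLE 1 and 2 with littermates 1 and 2, and another by littermates 3 and 4.

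Genes outside the list were also set against the members' mean, and those named here were picked from the genes most like it. Their high r over the 12 libraries follows from that choice. It is no test of whether they vary with the members more than other genes do. The r values of the rest of the panel are not given here. Ddx58, which encodes the RNA sensor RIG-I, had r = 0.91 over 12 libraries and 0.91 once group means were removed, and Ccl8, a chemokine, 0.89 and 0.87. Cxcl9, a chemokine best known for induction by interferon gamma, had 0.89 and 0.87. Tapbp, which loads peptide onto MHC class I, had 0.89 and 0.97, and Socs1, an inhibitor of Jak signalling, 0.87 and 0.85.

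The submitters scored CLE animals 1 to 4 at 2.5, 1, 1 and 3 and Merkel het CLE animals at 3, 2, 2 and 2.5. A trend on this score was fitted over the 8 diseased animals, allowing each disease group its own level. Per score point, Ifi204 changed by 0.48 ± 0.51 (SE, log2), Irf7 by 0.45 ± 0.55, Bst2 by 0.45 ± 0.49, Ifit2 by 0.29 ± 0.42, Stat2 by 0.14 ± 0.58, Ifi35 by 0.13 ± 0.37 and Ifih1 by -0.12 ± 0.32. The limma adjusted p ran from 0.826 to 0.928, and 0 of 451 genes were called (0%), with 20 at an unadjusted p under 0.05. Estimates were above 0 for 6 of 7 members and 62.7% of genes, and those of Stat2 and Ifi35 turned on median centring. CLE 2 and CLE 3 shared a score of 1 yet differed from 906 to 76.8 units in Stat2, and Merkel het CLE 4, scored 2.5, had the lowest member mean of all.

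**Figure D4:**
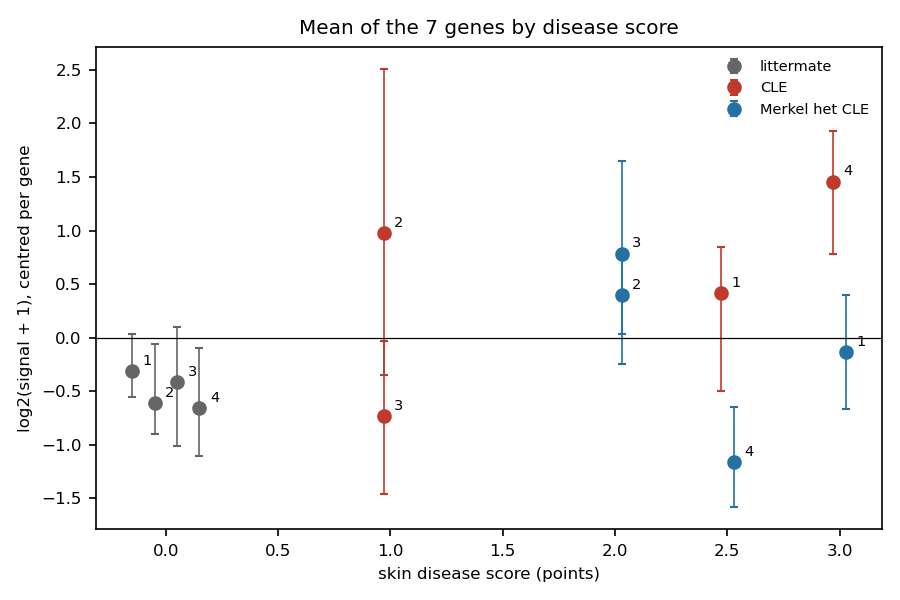
Mean of the 7 centred members (log2) against the disease score of each of the 12 mice, by group, with bars from the lowest to the highest member and mice numbered within groups. The mice scored 1 stand at 0.97 and -0.73, both CLE, the mice scored 2 at 0.40 and 0.78, both Merkel het CLE, and the mice scored 2.5 at 0.41 in CLE and -1.16 in Merkel het CLE.

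The rest of the pathway was read from lists of ligands, receptors, signalling proteins and sensors. Of the ligands, Ifna1 and Ifna2 were above background in 0 libraries and Ifnb1 in 1. The receptor genes Ifnar1 and Ifnar2 were tested, and neither passed. Ifnar1 differed by 0.35 ± 0.20 (SE) in CLE and 0.28 ± 0.20 in Merkel het CLE against littermates, and Ifnar2 by 0.45 ± 0.38 and 0.79 ± 0.38. Among 7 tested signalling genes 0 passed limma's adjusted threshold in any comparison. Irf1, a transcription factor induced by both interferon classes, differed by 1.18 ± 0.43 (SE) in CLE and -0.37 ± 0.43 in Merkel het CLE against littermates, and by -1.54 ± 0.43 between the disease groups (limma adjusted p = 0.0995). The list's median was 0.13 in CLE and -0.13 in Merkel het CLE, against 0.35 and 0.01 for all tested genes.

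Of 8 tested sensors and adaptors, Sting1 was the 1 that passed, in Merkel het CLE and in both disease groups together against littermates. Sting1 encodes the adaptor that carries cytoplasmic DNA signals towards interferon production. It read 54.3, 44.5, 69.9 and 52.0 units in littermates, the second below background, then 378, 207, 69.8 and 261 in CLE mice and 292, 156, 242 and 94.2 in Merkel het CLE mice. All Merkel het CLE mice were above all littermates. The difference was 1.70 ± 0.50 (SE, limma adjusted p = 0.0463) there and 1.82 ± 0.50 (adjusted p = 0.111) in CLE. The call in Merkel het CLE was lost, at adjusted p values up to 0.133, on leaving out any 1 littermate, any 1 Merkel het CLE mouse or CLE 2, with estimates of 1.47 to 2.01. Ddx58 differed by 0.51 ± 0.35 and 0.39 ± 0.35 and was not called. Of 3 other tested interferon-induced genes, 0 were called. Ifitm1, a membrane protein that restricts virus entry, read 55.3 to 121 units in littermates, 3497, 178, 116 and 196 in CLE mice and 1278, 155, 1040 and 357 in Merkel het CLE mice. All Merkel het CLE mice were above all littermates for Ifitm1. It stood at 2.24 ± 0.97 (SE) in CLE, 2.83 ± 0.97 in Merkel het CLE (limma adjusted p = 0.0737) and 0.59 ± 0.97 between them. Psmb9, an immunoproteasome subunit, stood at 0.78 ± 0.49 in CLE, -0.70 ± 0.49 in Merkel het CLE and -1.48 ± 0.49 between them. Tap1, the peptide transporter of MHC class I loading, stood at 0.54 ± 0.28 in CLE, -0.85 ± 0.28 in Merkel het CLE and -1.40 ± 0.28 between them (limma adjusted p = 0.063). Socs3, an inhibitor of Jak signalling, passed only with both disease groups together, at 1.77 ± 0.45 (limma adjusted p = 0.0424), a call kept in 4 of 12 fits that each left out 1 mouse.

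**Figure D5:**
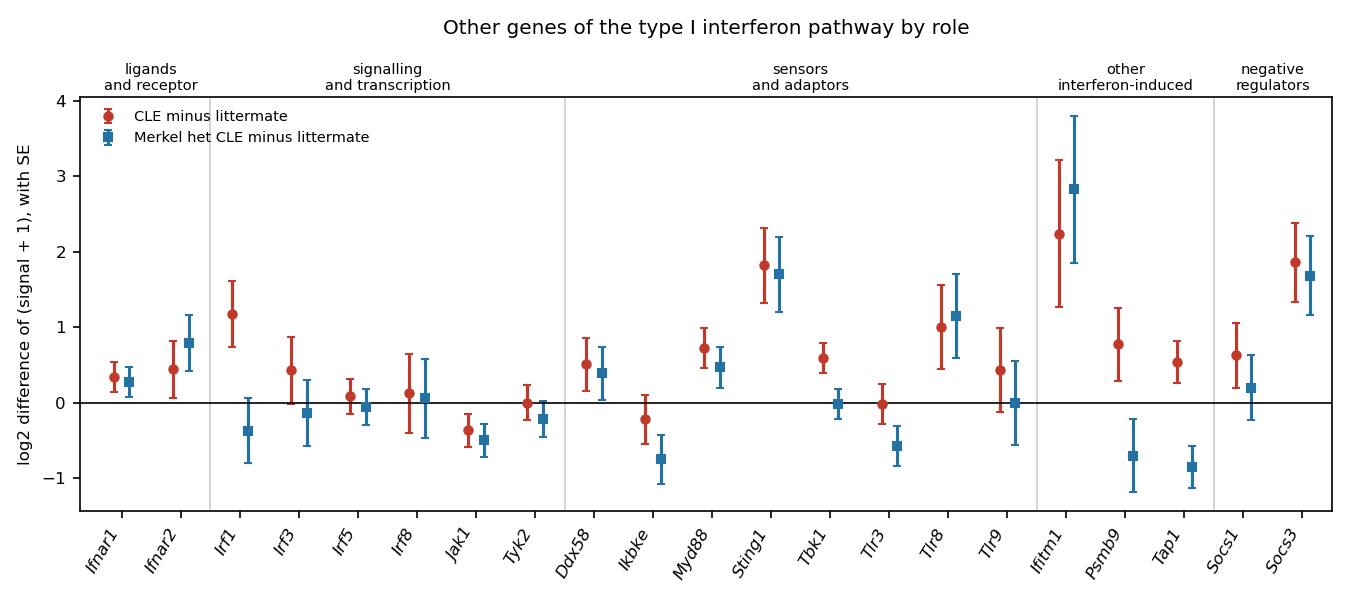
Log2 differences from littermates, with SE, of tested pathway genes outside the members, by role, in CLE and in Merkel het CLE skin. Sting1, at 1.70 in Merkel het CLE, is the 1 gene drawn that passed the adjusted threshold.

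Genes of the interferon gamma pathway, which shares many targets, were read beside the members. Of 8 tested, limma called 0 in CLE against littermates, with a median of 1.14, and 1 in Merkel het CLE, with a median of -0.09. That gene, Ifngr2, a subunit of the interferon gamma receptor, fell by 0.90 on the log2 scale, a call kept in 5 of 12 fits that each left out 1 mouse. Cxcl10, a T cell chemokine that both interferon classes induce, read 119, 97.0, 71.9 and 53.3 units in littermates and 2569, 2439, 131 and 3833 in CLE mice. In Merkel het CLE mice it read 145, 302, 301 and 113 units. Cxcl10 was high in CLE 1, 2 and 4, as Stat2 was. With both disease groups together Cxcl10 passed, at 2.64 ± 0.75 (limma adjusted p = 0.0442), and the call was kept in 1 of 12 such fits. Ifng was above background in 0 libraries.

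Markers of infiltrating cells also moved between the mice, and their part in the members' values was not tested. In such whole-skin samples fewer cells of a type and less RNA per cell cannot be told apart. The 4 neutrophil markers with a probe, of 7 listed, were all called higher in Merkel het CLE than in littermates, and they summed to 117.4 to 487 units in littermates. They summed to 236155, 11391, 1393 and 1207 units in CLE mice and to 60974, 9816, 48964 and 15341 in Merkel het CLE mice. S100a8 and S100a9 made up most of these sums. In CLE 1 they read 139994 and 93820 units, against 1540 for Cxcr2 and 801 for Csf3r. CLE 4, highest for the members, had the lowest CLE sum, with S100a8 at 615 units against 1011 in CLE 3. The other markers, S100a9, Csf3r and Cxcr2, were lower in CLE 3 than in CLE 4. Macrophage and monocyte markers, 8 with a probe of 11 listed, summed to 1213 to 2109 units in littermates, 1193 to 10092 in CLE and 1687 to 6518 in Merkel het CLE, and 0 of 7 tested were called. The 7 T cell markers summed to 432 to 659 units in littermates, 473 to 801 in CLE and 261 to 429 in Merkel het CLE. Of 6 tested there, Cd3e, Cd3d and Cd247 were called lower than in littermates, as were 31 of 451 tested genes in all. The estimates of Cd4 and Cd5 were above 0 there. Of the 12 fits that each left out 1 mouse, the neutrophil marker calls were kept in 4 to 6 and the T cell marker calls in 4 to 11. The 2 plasmacytoid dendritic cell markers with a probe, of 6 listed, summed to 784 to 1104, 543 to 1141 and 884 to 1226 units, and B cell markers to 100 to 243, 124 to 256 and 74.4 to 95.4.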

How the data were processed

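Skin RNA of 12 mice was counted on a NanoString nCounter panel, per the labels' protocols. The deposited values are a normalized signal, in which every value of a library is a whole multiple (within 0.02 units) of 1 step of 0.715 to 5.56 units. How the authors set that factor was not given in the sources used here. Replicates are different mice, numbered in accession order, so the numbers pair nothing.

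Gene symbols came from RefSeq identifiers (549 of 561 probes matched). A gene was tested when above background in at least 4 libraries, and 12 reference genes were left out. Values were tested as log2(value + 1) with limma 3.58.1 in R 4.3.3, 12 libraries in 1 fit of group means with a mean-variance trend, and adjusted by Benjamini-Hochberg over 451 genes at 0.05. The procedure was tested on simulated data. All members were named, with pathway genes past the threshold or lowest in p, and genes from the 6 most like the members. Results for 1 gene are not reported here. The members and lists were chosen with earlier results of these data known. Counting error is larger where 1 count is worth more units. Alternatives covered scaling, filter, pseudocount, background, library weights, TLR9 genotype and leaving out each mouse.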

Additional observations from a re-analysis of the deposited data

Results flagged for a closer look

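Ifi35 in CLE 3, at 296.11 units, stood far below the other CLE mice, which read 801, 891 and 885 units. Its gap to the nearest of them, over the whole range of the group, was 0.903, above Dixon's 95% limit for 4 samples. Of 21 groups of 4 examined, 7 members in 3 groups, this was the 1 that passed, and chance alone flags about 1 in 20.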

How the results depend on the processing

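Member differences were recomputed 846 times over 27 settings. Of these, 783 kept direction and side of the threshold, 18 passed it only under the alternative and 45 changed sign. None of those 45 had a limma adjusted p below 0.442. No member passed the threshold in the reported fits, so none could lose it. The number of members called in CLE minus littermate was 3 with library weights and 0 to 4 over leaving out each mouse. It was 3 with library weights in Merkel het CLE minus littermate. In Merkel het CLE minus CLE it was 0 to 1 over leaving out each mouse, and with both disease groups 5 with library weights and 0 to 2 over leaving out each mouse. Over the whole panel, library weights called 108, 185 and 196 genes in CLE, Merkel het CLE and both groups against littermates, where 0, 53 and 46 were reported. Leaving out Merkel het CLE 3 gave 9 genes in Merkel het CLE and 0 in both groups, and leaving out CLE 3 gave 138, 94 and 131. Leaving out any 1 littermate gave 2 to 5 in Merkel het CLE and 0 in both groups, and TLR9 ko/ko mice alone, or no K14Cre littermates, gave 0 in each.

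Signs changed as follows, and the cause was not tested. In CLE minus littermate, Ifit2 was -0.048 when centred on library medians, -0.11 after quantile normalization and -0.11 after background subtraction. In Merkel het CLE minus littermate, Ifi35 was -0.055 when centred and Stat2 -0.045 with TLR9 ko/ko mice alone. In Merkel het CLE minus CLE, Ifit2 was 0.10 centred, 0.24 quantile normalized, 0.94 background subtracted, 0.24 weighted, 0.050 with the title number as a block and 0.062 in ko/ko mice, and Ifi204 was 0.0059 weighted. With both disease groups, Ifih1 was -0.021 rescaled to reference genes, -0.32 centred and -0.24 quantile normalized. In the score trend, Stat2 was -0.11 centred, -0.090 quantile normalized and -0.48 weighted, and Ifi35 was -0.12, -0.0079 and -0.25. Weighting also gave Irf7 -0.18 and Bst2 -0.037, background subtraction gave Ifit2 -0.11, and the title-number block gave Ifih1 0.0099.

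Leaving out each mouse gave Ifit2 -0.021 to 0.64 in CLE minus littermate. In Merkel het CLE minus CLE it gave Irf7 -1.10 to 0.027, Ifi204 -0.78 to 0.30, Ifit2 -0.39 to 0.41 and Bst2 -0.83 to 0.16, and with both groups Ifih1 -0.025 to 0.23. In the score trend it gave Stat2 -0.63 to 0.82, Irf7 -0.25 to 0.93, Ifi35 -0.29 to 0.36, Ifit2 -0.41 to 0.49, Ifih1 -0.43 to 0.086 and Bst2 -0.14 to 0.75.

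The number in the sample titles was tried as a random block, with a consensus correlation of 0.21, and 0 members were called, as without it. No paired analysis was possible because the replicate numbers were given in accession order and pair no mice. The planned count test was not run, since the required check did not accept every library. That check also read the control probes, which are not scaled as the gene values are, and started from the smallest value. Gene values alone, apart from those at the floor of 1, were multiples of 1 step in every library. Depth limits Ifit2 most, at 12 barcode counts in CLE 1.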
